A study of Mus musculus with 22 samples.

Results

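Oxidative phosphorylation is the pathway by which mitochondria turn the energy of NADH and succinate into ATP. Complexes I and II pass electrons to complex III, cytochrome c carries them to complex IV, where oxygen is reduced, and complex V, the ATP synthase, uses the resulting proton gradient. Most subunits are encoded in the nucleus and imported, and a small set is encoded in mitochondrial DNA. In fat tissue these genes are known for their high level in brown fat and in fat cells with many mitochondria.

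The nuclear genes of this pathway were followed in mammary tissue of 22 mice. Members were chosen by symbol, from the gene families named for subunits of complex I (Ndufa, b, c, s and v with a number), complex II (Sdha to Sdhd), complex III (Uqcr), complex IV (Cox4 to Cox8) and complex V (Atp5). Of 89 symbols that matched, 6 pseudogene symbols were set aside, as were Cox7a1 and Cox8b, the forms of brown fat and muscle. A gene was then kept if it exceeded 1 CPM (a gene's reads scaled to a common library total, with 1 CPM the lowest value in the deposited files) in at least 5 mice. Just outside this limit were Cox7b2 and Cox8c, which were at 1 CPM in every mouse. Just inside it were Atp5g2 and Cox4i2, each at 1 CPM in 10 mice. This left 79 members among 15138 genes that passed the same limit: 35 of complex I, 4 of complex II, 8 of complex III, 16 of complex IV and 16 of complex V. Ndufa4 and its relative Ndufa4l2 were counted with complex IV, of which NDUFA4 is a subunit. The others, Cox7a2l and Atp5s included, were counted by the family of their symbol. That does not establish that each encodes a structural subunit.

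All 22 mice were females of the inbred C57BL/6J strain, 7 to 8 weeks of age, and all had 100000 EO771 cells, a mammary cancer line of the same strain carrying luciferase, injected into the left 4th mammary fat pad. For 2 weeks before engraftment they had a running wheel, or only its hub (control). Liposomes holding PBS, or holding clodronate, which kills phagocytes that take it up, were injected 24 hours before engraftment and again with the cells, and tissue was taken 24 hours after the cells. PBS liposomes went to 6 control and 6 wheel mice, and clodronate liposomes to 5 of each, with each mouse a separate library of a single experiment. RNA came from the whole tissue, so that fewer cells of a type and less RNA per cell cannot be told apart. Voluntary running differs between animals, and the distance run by each mouse was not used here.

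Libraries had 13256467 to 20484578 reads (median 16293026), and the median member had 1567 reads in a mouse, which gives a counting error of 2.53% (reads are not independent molecules, so this covers counting only). Markers of mammary tissue were present: all 10 adipocyte and all 8 epithelial genes of fixed lists were above 1 CPM in every mouse. Lymph node genes (12, for B and T cells and high endothelial vessels) stood out in 5 mice, namely control mouse 2 and wheel mouse 3 with PBS liposomes and wheel mice 3, 4 and 5 with clodronate liposomes. Their summed level was 670.5 and 1234 CPM at the highest in the control and wheel groups with PBS liposomes, 19.2 CPM at the highest in control mice with clodronate liposomes and 1716 CPM at the highest in wheel mice with clodronate liposomes. Skeletal muscle genes (12) were highest in control mouse 2 (28455 CPM in sum) and wheel mouse 2 (12838 CPM) with clodronate liposomes. For the wheel and the averaged clodronate comparisons, counts of lower members are also given without these mice.

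The members were abundant genes. Their median level was 103 CPM, against 10.2 CPM for all genes tested, and 95.0% of the genes tested lay below that median. QuantSeq libraries hold about a single read per transcript, so CPM values can be set side by side between genes without correction for length. The order within each complex is shown in the plot of levels by complex. Atp5g3, which encodes the c-ring subunit of the ATP synthase in 1 of 3 gene copies, was the highest of all members at 624.9 CPM over the 22 mice. Atp5b (437 CPM) and Atp5a1 (403 CPM), the catalytic β and the α subunits of the F1 head, followed in complex V. Cox6a1, a small subunit of cytochrome c oxidase, led complex IV at 415 CPM, ahead of Cox4i1 (349 CPM) and Cox8a (324 CPM).

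Complexes I, II and III were lower at their upper end. Ndufb9, an accessory subunit of complex I, had 194 CPM and Sdha, the flavoprotein of succinate dehydrogenase, also had 194 CPM. Uqcrq, a small subunit of complex III, had 264 CPM. At the lower end, Ndufs5 had 4.24 CPM, Sdhd, a membrane anchor of complex II, 28.3 CPM, and Uqcr11 84.7 CPM. In all, 12 members had at least 200 CPM, 52 had 50 to 200 CPM, 9 had 5 to 50 CPM and 6 were under 5 CPM.

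Some members share the end of their transcript with other genes. The last 400 bases of the transcript matched another gene (at least 97% identity over 100 bases or more) for 11 members, among them Atp5l, Atp5g2 and Ndufs5, and reads that map to several places were not counted for any gene. The level of these members is therefore uncertain. The other 68 members had no such match.

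**Figure D1:**
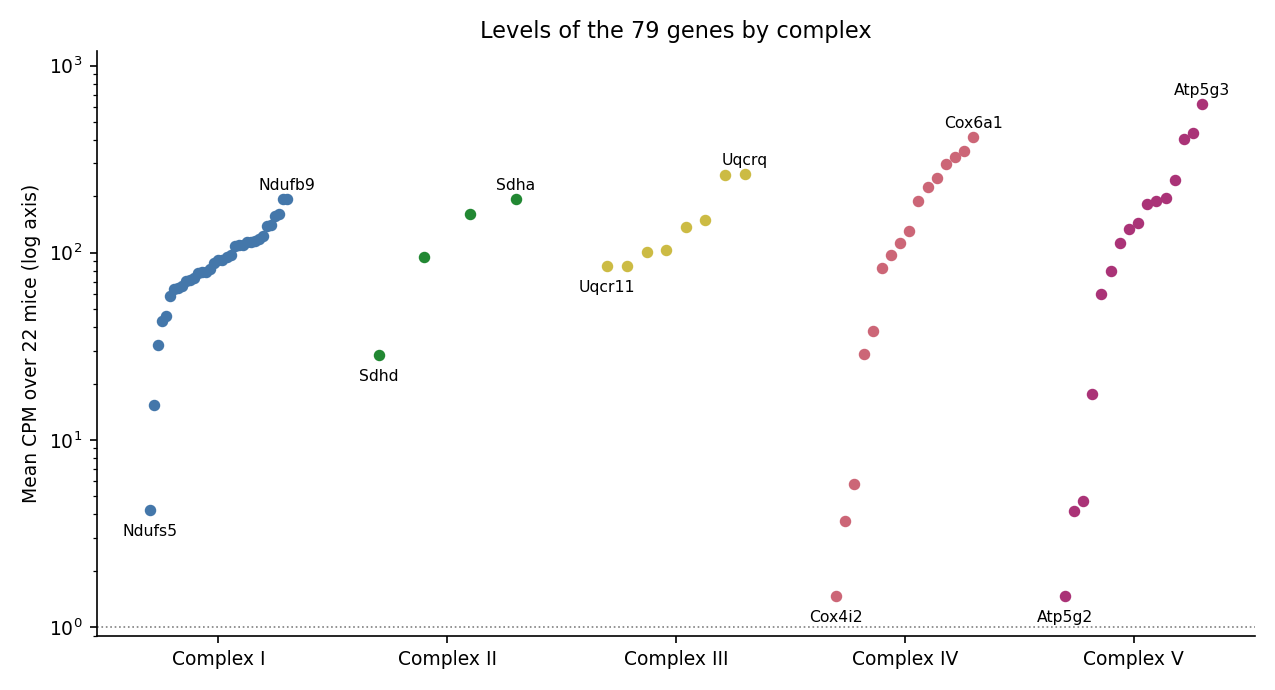
Each point is the mean CPM of a gene over 22 mice (vertical log axis), by complex, with the highest and lowest gene of each complex named. The dotted line marks the 1 CPM floor, and levels span 1.47 CPM (Atp5g2 and Cox4i2) to 624.9 CPM (Atp5g3).

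Forms of the same subunit differed widely in level. Of the c-ring genes, which encode the same mature protein, Atp5g3 supplied 91.7% to 97.9% of the summed CPM in every mouse and Atp5g1 1.98% to 7.86%. The third, Atp5g2, shares its transcript end with another gene and was at 1 CPM in 10 mice. Its reads may be undercounted, which leaves these shares uncertain. The lowest share of Atp5g3 and the highest of Atp5g1 were those of control mouse 2 with clodronate liposomes, the mouse with the highest muscle genes. Cox4i1, the common form of subunit 4, had 349 CPM, while Cox4i2, a form known from lung and from low oxygen, had 1.47 CPM. Cox6b1 had 250 CPM and Cox6b2, known from testis, 3.70 CPM.

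The members of greatest interest for the comparisons below are shown with the bases that precede their start sites, because nuclear respiratory genes are known for sites of NRF-1, of the ETS factor GABP and of the ERR nuclear receptors. Printed are the 3 members with the lowest p for clodronate against PBS liposomes (Cox8a at chr19:7217617-7217866, Cox6a1 at chr5:115348959-115349208 and Cox6b1 at chr7:30626115-30626364) and the most abundant member (Atp5g3 at chr2:73911327-73911576). All are on the minus strand of GRCm38.p6, taken from RefSeq and written 5′ to 3′, 250 bases up to the start. Capitals mark GCATGCGC (NRF-1), CCGGAAG (GABP) and AAGGTCA (ERR) in either orientation.
Cox8a: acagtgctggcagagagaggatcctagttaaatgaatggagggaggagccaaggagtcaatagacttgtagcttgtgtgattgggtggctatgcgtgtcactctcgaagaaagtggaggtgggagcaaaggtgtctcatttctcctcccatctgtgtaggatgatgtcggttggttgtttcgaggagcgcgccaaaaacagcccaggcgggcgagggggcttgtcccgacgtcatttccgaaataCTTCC
Cox6a1: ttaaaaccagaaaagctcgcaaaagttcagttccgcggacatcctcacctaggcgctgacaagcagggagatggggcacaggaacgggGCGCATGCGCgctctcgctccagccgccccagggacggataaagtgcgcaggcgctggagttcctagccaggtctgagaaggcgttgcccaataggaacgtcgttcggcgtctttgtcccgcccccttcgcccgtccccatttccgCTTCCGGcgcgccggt
Cox6b1: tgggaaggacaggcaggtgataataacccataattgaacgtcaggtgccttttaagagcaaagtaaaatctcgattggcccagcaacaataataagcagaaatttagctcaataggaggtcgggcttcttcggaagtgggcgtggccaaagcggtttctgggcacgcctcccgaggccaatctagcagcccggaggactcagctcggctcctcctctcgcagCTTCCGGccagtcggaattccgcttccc
Atp5g3: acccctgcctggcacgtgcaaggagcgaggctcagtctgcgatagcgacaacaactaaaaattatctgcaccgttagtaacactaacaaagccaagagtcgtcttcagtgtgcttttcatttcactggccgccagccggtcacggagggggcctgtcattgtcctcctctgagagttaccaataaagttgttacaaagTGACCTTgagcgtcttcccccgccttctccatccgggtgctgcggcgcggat

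Cox8a, Cox6a1 and Cox6b1 all had CCGGAAG, on the opposite strand as CTTCCGG, beginning 5, 16 and 28 bases before the RefSeq start. In GENCODE M21, Cox6a1 (from 115348981) and Cox6b1 (from 30626151) begin further upstream, within the printed bases. In Cox8a the match runs past the start, so only its part before the start is printed. Cox8a had another CCGGAAG in the 50 bases after its start, which are not printed. Cox6a1 also had the NRF-1 letters in both orientations, overlapping, 162 bases before the start, and Atp5g3 had AAGGTCA as TGACCTT, 52 bases before it.

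Over the members, 65 of 79 had a RefSeq promoter of 300 bases (250 before and 50 after the start, 1 per gene). Members without an entry included Atp5a1, Cox4i1, Cox4i2, Cox6a2, Cox6c, Ndufa2, Ndufa4l2, Ndufb9, Ndufs1, Sdhc, Uqcrb, Uqcrc2 and Uqcrq. GCATGCGC was in 10 of 65 (15.4%), against 2.80% of all 27025 promoters and 4.99% of the promoters of genes tested. CCGGAAG was in 15 (23.1%), against 9.12% of all promoters and 17.0% of those of genes tested. AAGGTCA was in 8 (12.3%), against 4.66% and 3.14%. AAGATGGC, the letters of YY1, was in 9 (13.8%), against 2.88% and 4.39%. GGGCGG, the letters of Sp1, was in 27 (41.5%), against 35.9% of all promoters and 62.2% of those of genes tested. Both strands were searched. These are counts of letters, and binding was not measured.

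The question of the design was whether running altered the tissue and whether this depended on phagocytes. The mean of log2(CPM + 1) over the 79 members gave a level for each mouse, and no test was run on it since the members were chosen together. In control mice with PBS liposomes it ranged from 6.29 to 6.67 (median 6.51, n = 6), and in wheel mice with PBS liposomes from 6.28 to 6.48 (median 6.40, n = 6). In control mice with clodronate liposomes it was 6.43, 6.49, 6.01, 6.12 and 6.32 in mice 1 to 5. In wheel mice with clodronate liposomes it was 6.23, 6.44, 6.09, 6.19 and 6.06. The 4 groups overlapped, and while the 3 highest values were those of control mice with PBS liposomes, the 6 lowest were those of mice given clodronate liposomes.

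**Figure D2:**
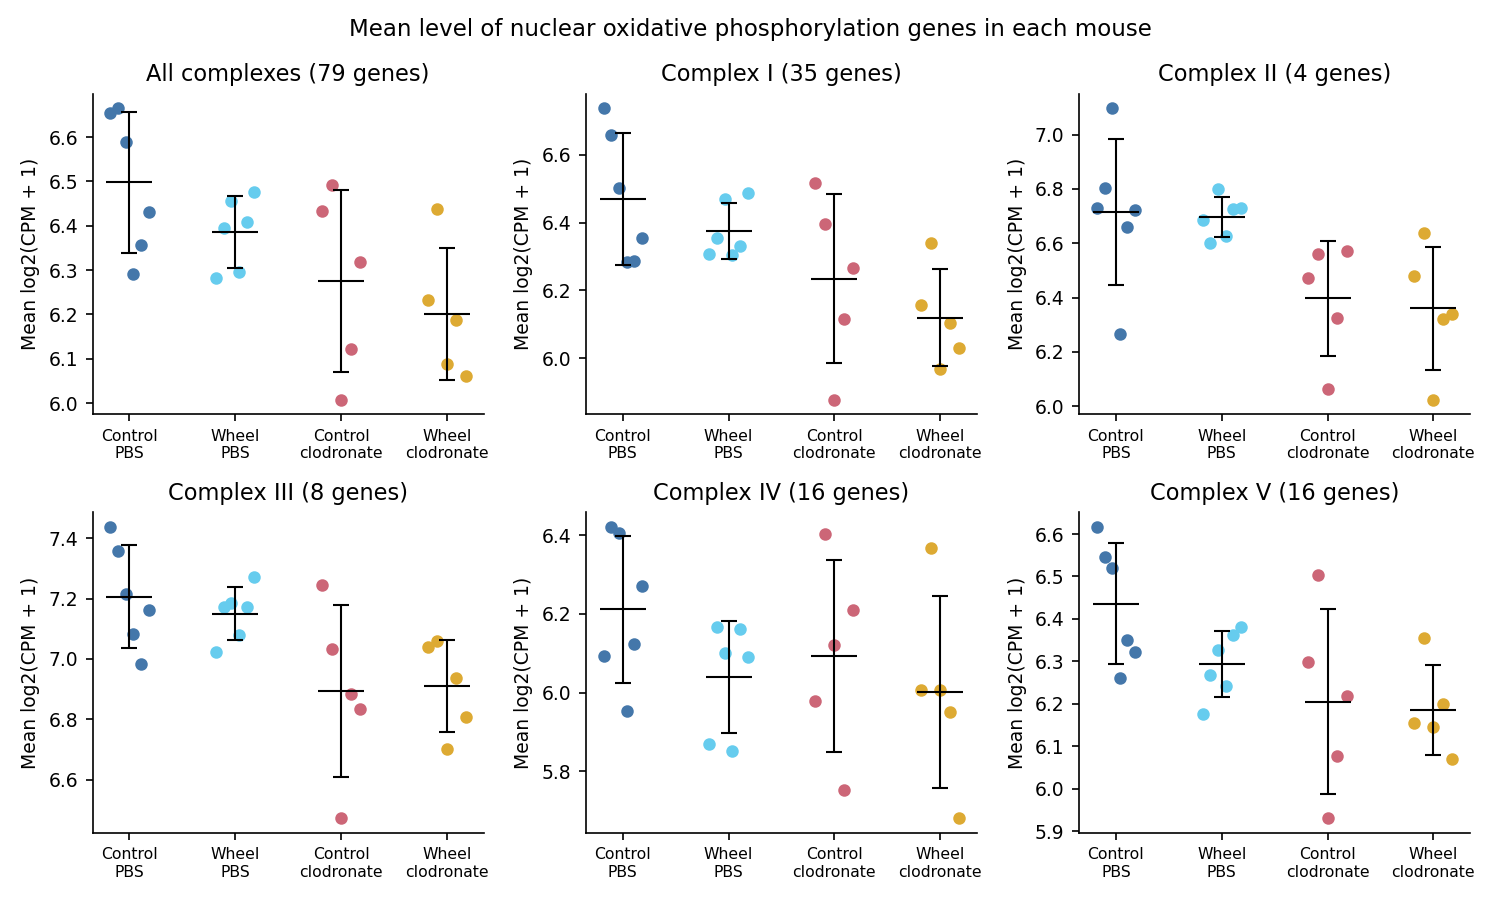
Each point is a mouse, plotted by group at the mean of log2(CPM + 1) over all 79 genes (first panel) or over the genes of a complex, with the group mean and SD as a bar. Vertical axes do not start at 0. Over all complexes the group means are 6.50 (control, PBS), 6.39 (wheel, PBS), 6.27 (control, clodronate) and 6.20 (wheel, clodronate), and the groups overlap.

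With PBS liposomes, no member separated wheel from control mice. Of the 79 members 61 (77.2%) were lower in mean with the wheel, beside 63.8% of all genes tested, and the median difference of the members was -0.08 on the log2(CPM + 1) scale, as was that of all genes (-0.08). In limma, 0 of 79 members passed an adjusted p of 0.05 (0% of all genes did), and 1 member had an unadjusted p under 0.05 and was lower (4.12% of all genes), with 0 higher (0.799% of all genes). That member was Ndufa6, an accessory subunit of complex I with a difference of -0.25 (standard error 0.10, limma adjusted p = 0.987), a gene singled out after its values were seen. The ranges of the groups overlapped for every member, whereas 0.218% of all genes lay wholly lower with the wheel and 0.0462% wholly higher.

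Complexes varied little around this. The median difference was -0.13 for complex I, 0.02 for complex II, -0.06 for complex III, -0.08 for complex IV and -0.12 for complex V. The largest differences were those of Cox6a2 (-1.65, standard error 1.10), the muscle form of subunit 6A, and of Atp5l (-0.54, standard error 0.27), a membrane subunit of the ATP synthase with near-identical copies elsewhere in the genome. On the other side were Ndufa10 (0.19), Ndufa3 (0.17) and Ndufs6 (0.17), accessory subunits of complex I. None passed the test. Skeletal muscle genes were lower in mean with the wheel as well (12 of 12, median -1.92, 0 at an unadjusted p under 0.05), and their part in the value of Cox6a2 was not tested. When each mouse was rescaled to the same upper quartile, 38 of 79 members were lower and the median difference became 0.01 (-0.001 for all genes). The direction of these members with the wheel thus depended on the scaling. Without the 5 mice high in lymph node genes 56 members were lower, with a median of -0.08. The share of all genes lower is not given for these counts.

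With clodronate liposomes, 57 members (72.2%) were lower in mean in wheel than in control mice, beside 49.3% of all genes, with a median difference of -0.09 (0.005 for all genes). In limma 0 of 79 passed an adjusted p of 0.05 (0.00661% of all genes did), 6 members had an unadjusted p under 0.05 and were lower (3.4% of all genes), and 0 were higher (7.04% of all genes). Ndufb11, an accessory subunit of complex I with a near-identical pseudogene copy, was the only member whose groups did not overlap, lower with the wheel (0.601% of all genes did so, and 0.667% lay wholly higher). It had 72.9, 89.5, 74.4, 65.8 and 65.9 CPM in control mice 1 to 5 and 48.4, 59.5, 63.6, 59.2 and 49.2 CPM in wheel mice 1 to 5. All wheel mice lay below all control mice, and the log2 difference was -0.39 (standard error 0.13, limma adjusted p = 0.266), -0.34 without the 2 mice highest in muscle genes and -0.44 without the 5 high in lymph node genes. Ndufb11 was named because its groups do not overlap, after its values were seen.

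Ndufa12, another accessory subunit of complex I, differed by -0.43 (standard error 0.17, limma adjusted p = 0.346). Under scaling to the reads assigned to genes 46 members were lower (42.0% of all genes) and the median difference became -0.02 (0.06 for all genes). Without the 2 mice highest in muscle genes 60 were lower (48.5% of all genes), with a median of -0.11. Fat cell genes were lower in mean with the wheel here, 7 of 7 brown fat genes tested (median -0.32, 0 at an unadjusted p under 0.05) and 8 of 10 adipocyte genes (median -0.21, 1 at that level), and their part in the result was not tested. Lymph node genes moved with this comparison: all 12 were higher in wheel mice, their summed level was 12.7 to 1716 CPM there against 13.0 to 19.2 CPM in control mice, and their part in the result was not tested. Without the 5 mice high in lymph node genes, which leaves 2 wheel mice with clodronate liposomes, 34 of 79 members were lower, the median difference was 0.07, and the mean over members turned from -0.07 to 0.06. Under both liposomes 41 members were lower in mean with the wheel. The share of all genes was not counted for these 41, and it is not given for the 34 above.

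**Figure D3:**
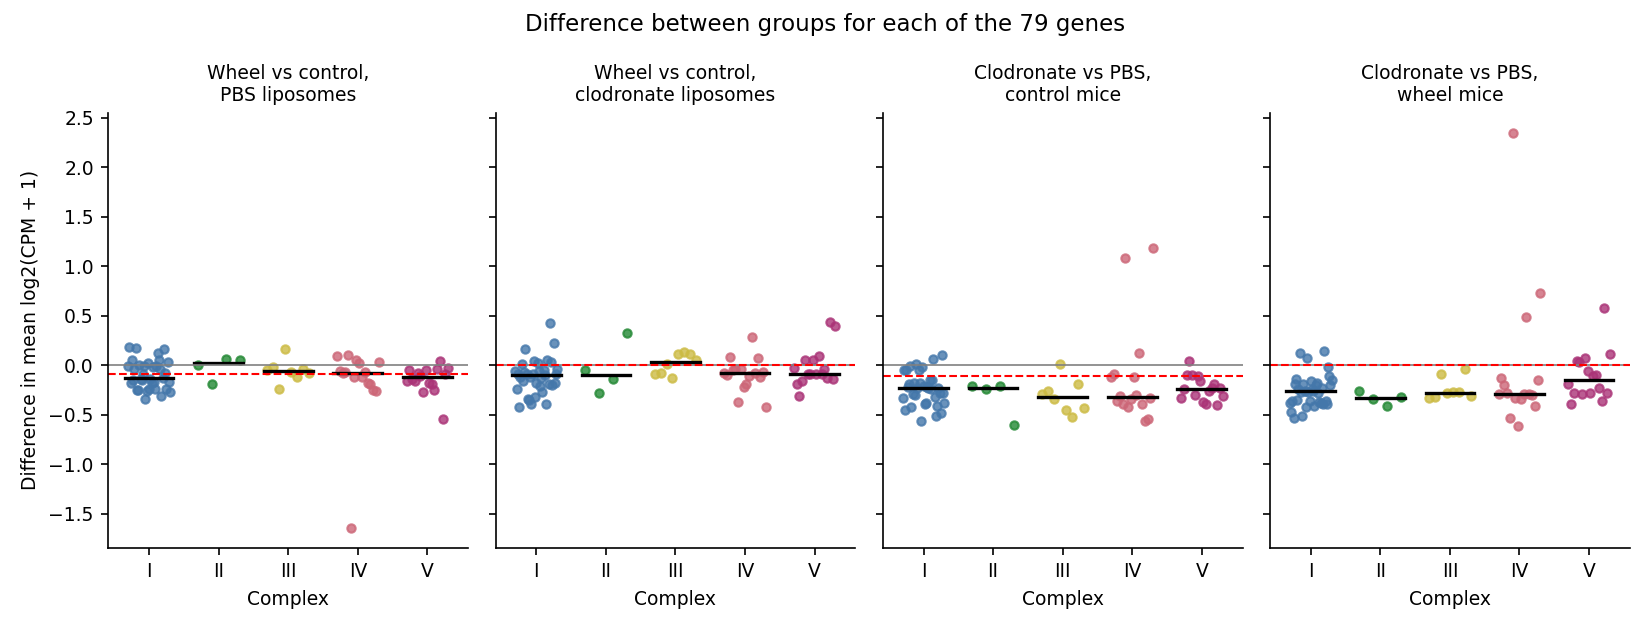
Each point is a gene, plotted by complex at its difference in mean log2(CPM + 1) between groups, in 4 comparisons. Black bars are the medians of a complex and the red dashed line is the median of all 15138 genes tested. For the wheel with PBS liposomes the medians of complexes I and V lie below that line and the others above it. For the wheel with clodronate liposomes all but that of complex III lie below it. In both comparisons of clodronate with PBS the medians of all 5 complexes lie below it. The highest points are Cox6a2 and Ndufa4l2.

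With clodronate the members were lower in mean in both activity groups, and no member passed the test. In control mice 71 of 79 (89.9%) were lower with clodronate than with PBS liposomes, beside 65.4% of all genes, with a median difference of -0.25 (-0.10 for all genes). In limma 0 of 79 passed an adjusted p of 0.05 (0% of all genes did). At an unadjusted p under 0.05, 25 were lower (6.08% of all genes) and 1 was higher (0.905% of all genes). In wheel mice 68 (86.1%) were lower, beside 49.9% of all genes, with a median difference of -0.27 (0.0002 for all genes). Here too 0 of 79 passed in limma (0.00661% of all genes did), 25 had an unadjusted p under 0.05 and were lower (5.54% of all genes) and 2 were higher (6.08% of all genes). The activity groups hold different mice, and 64 members were lower with clodronate in both. The share of all genes lower in both was not counted.

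The upper-quartile rescaling, which moved the median of all genes in control mice from -0.10 to -0.007, left 62 of 79 members lower there (51.1% of all genes) with a median of -0.13, 5 of them at an unadjusted p under 0.05 (2.55% of all genes). Relative to the median of all genes, the members' median in control mice was -0.14 as deposited and -0.12 rescaled, and in wheel mice -0.27 under both. Without the 5 mice high in lymph node genes, 68 members were lower in control mice (64.7% of all genes, median -0.23), 16 of them at an unadjusted p under 0.05 (5.93% of all genes). In wheel mice, where 2 mice with clodronate remained, 58 were lower (58.9% of all genes, median -0.15 against -0.08 for all genes), 3 of them at that level (5.81% of all genes), a smaller share of the members than of all genes.

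Averaged over activity, the difference was -0.26 in median and 74 of 79 members (93.7%) were lower with clodronate, beside 57.4% of all genes and a median of -0.04. Of these, 48 had an unadjusted p under 0.05 in limma (8.3% of all genes were lower at that level), and 2 members were higher at that level (2.13% of all genes). Among genes with a mean of at least 5 CPM, 11% were lower at that level. The members vary together between mice, as described below, so the 48 are not separate results. None of the 79 passed an adjusted p of 0.05, while 31 genes that are not members did, all lower (0.205% of all genes). After upper-quartile rescaling 70 were lower (49.2% of all genes, median -0.20), 19 of them at an unadjusted p under 0.05 (5.19% of all genes). The smallest adjusted p of a member was 0.0836, shared by Cox8a, Cox6a1 and Cox6b1. With clodronate, genes above 1 CPM held 57.2% to 58.5% of the reads in wheel mice and 58.7% to 63.0% in control mice. With PBS liposomes they held 58.3% to 63.7% in wheel and 60.4% to 64.5% in control mice. Under scaling to assigned reads, 5.9% of all genes were lower at an unadjusted p under 0.05 in limma. Of all genes 15 passed an adjusted p of 0.05 there, none of them a member. How many members were lower under this scaling is not given here. The part of the assigned share in the result was not tested.

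Most members of all 5 complexes were lower in mean. Of all genes 57.4% were lower in this averaged comparison, and 8.3% were lower at an unadjusted p under 0.05 in limma. The counts by complex were made on the values as deposited and not after rescaling. In complex I 35 of 35 members were lower, 21 of them at an unadjusted p under 0.05, with a median of -0.25. In complex II all 4 were lower, each at an unadjusted p under 0.05, with a median of -0.30. In complex III 8 of 8 were lower (5 at that level, median -0.30). In complex IV 13 of 16 were lower (9 at that level, median -0.29) and in complex V 14 of 16 (9 at that level, median -0.21). The exceptions were Cox6a2, Ndufa4l2 and Cox7a2l in complex IV and Atp5l and Atp5d in complex V. Atp5d, the δ subunit of F1, differed by 0.04 (standard error 0.08) and Atp5l by 0.09 (standard error 0.20).

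Cox8a, the smallest subunit of cytochrome c oxidase, had the lowest p (chromosome 19, 7215153 to 7217616). In control mice with PBS liposomes it ranged from 318 to 452 CPM (median 422), and in wheel mice with PBS liposomes from 282 to 429 CPM (median 330.0). With clodronate liposomes it had 339, 178, 229, 308 and 360 CPM in control mice 1 to 5 and 319, 226, 240.0, 242 and 241 CPM in wheel mice 1 to 5. Of the 10 mice given clodronate 6 lay below every mouse with PBS liposomes, and 4 lay within their range. The averaged log2 difference was -0.48 (standard error 0.12, limma adjusted p = 0.0836).

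Cox6a1, the common form of subunit 6A, is on chromosome 5 (115345642 to 115348981). It had 392 to 532 CPM (median 446) in control and 398 to 521 CPM (median 507) in wheel mice with PBS liposomes. With clodronate liposomes it had 508, 237, 276, 355 and 411 CPM in control mice and 383, 348, 289, 317 and 348 CPM in wheel mice. Every wheel mouse with clodronate lay below every mouse with PBS liposomes, while control mice 1 and 5 with clodronate lay within their range. The averaged difference was -0.46 (standard error 0.11, limma adjusted p = 0.0836).

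Cox6b1, a subunit on the side of the intermembrane space that touches cytochrome c, is on chromosome 7 (30616861 to 30626151). It had 228 to 353 CPM (median 288) in control and 243 to 313 CPM (median 261) in wheel mice with PBS liposomes. With clodronate liposomes it had 255, 249, 194, 180 and 211 CPM in control mice and 241, 232, 194, 192 and 198 CPM in wheel mice. Control mice overlapped between liposomes, and wheel mice did not. The averaged difference was -0.38 (standard error 0.09, limma adjusted p = 0.0836). Cox6b1 was named here after its values were seen.

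Uqcrc2, a core protein of complex III, had the next lowest p (chromosome 7, 120635176 to 120659524). It had 123 to 188 CPM (median 156) in control and 132 to 162 CPM (median 150.4) in wheel mice with PBS liposomes, and 124, 132, 95.3, 122 and 95.3 CPM in control mice and 123, 133, 100.02, 136 and 121 CPM in wheel mice with clodronate liposomes. The 10 mice with clodronate overlapped those with PBS liposomes in their upper part. Its averaged difference was -0.37 (standard error 0.09, limma adjusted p = 0.0878).

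In complex V, Atp5g3 (chromosome 2, 73908447 to 73911326) had 608 to 840 CPM (median 738) in control and 588 to 771 CPM (median 629) in wheel mice with PBS liposomes. With clodronate liposomes it had 646, 548, 492.7, 565 and 567 CPM in control mice and 535, 568.5, 474, 535 and 541 CPM in wheel mice, so that 9 of these 10 mice lay below every mouse with PBS liposomes. The averaged difference was -0.33 (standard error 0.08, limma adjusted p = 0.0995). Atp5b (chromosome 10, 128083273 to 128090391) had 376 to 604 CPM (median 494) in control and 425 to 522 CPM (median 463) in wheel mice with PBS liposomes, and 450, 425, 376, 405 and 393 CPM in control mice and 381, 394, 324, 353 and 348 CPM in wheel mice with clodronate liposomes. Wheel mice did not overlap between liposomes, and the averaged difference was -0.32 (standard error 0.08, limma adjusted p = 0.102).

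In complex I the lowest p was that of Ndufa8, an accessory subunit of the membrane arm, named after its values were seen. It had 67.0 to 120.3 CPM (median 91.8) in control and 67.3 to 97.8 CPM (median 82.8) in wheel mice with PBS liposomes, and 71.4, 76.1, 61.5, 81.7 and 83.8 CPM in control mice and 46.3, 68.6, 45.6, 68.3 and 68.3 CPM in wheel mice with clodronate liposomes. The groups overlapped in both activities, with the lowest values in wheel mice 1 and 3 with clodronate. Its averaged difference was -0.41 (standard error 0.11, limma adjusted p = 0.108). Among the core subunits the averaged differences ran from -0.34 for Ndufs7 to -0.01 for Ndufv1, which binds NADH. In complex II, Sdhd differed by -0.46 (standard error 0.20), Sdhc by -0.31, Sdhb, the iron-sulfur subunit, by -0.29 and Sdha by -0.24.

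**Figure D4:**
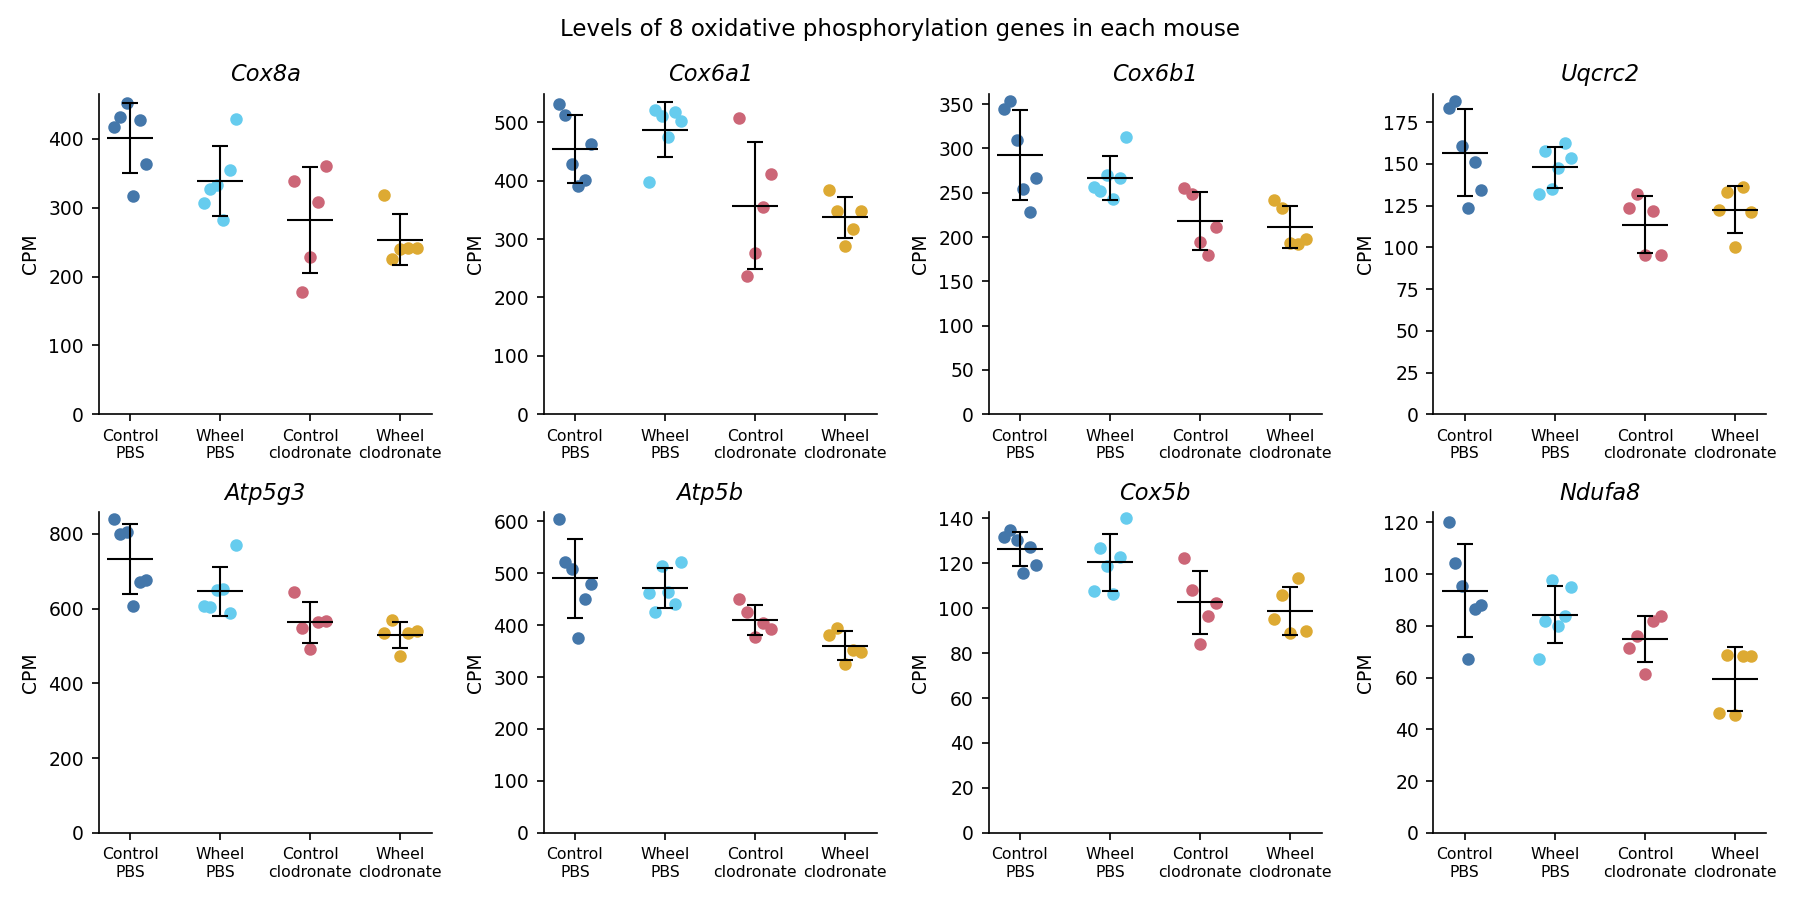
Each point is a mouse, plotted by group at its CPM for each of 8 genes (vertical axes start at 0), with the group mean and SD as a bar. For all 8 genes both clodronate groups have lower means than both PBS groups, and single mice overlap.

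In wheel mice 9 members had clodronate values that lay wholly below those with PBS liposomes (0.912% of all genes): Atp5b, Atp5g3, Cox4i1, Cox6a1, Cox6b1, Cox6c, Cox7a2, Ndufb11 and Uqcr10. None lay wholly above (0.35% of all genes). In control mice 0 members lay wholly below (0.575% of all genes) or above (0.0595%). Whether the effect of clodronate differed between activity groups was tested by the interaction, where 0 of 79 members passed in limma (0% of all genes did), 2 were lower and 2 higher at an unadjusted p under 0.05 (1.23% and 6.35% of all genes), and the median was 0.03 (0.09 for all genes). Among these were Ndufa6 (0.41, standard error 0.15), Atp5l (0.98, standard error 0.39) and Ndufb11 (-0.38, standard error 0.18).

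Several measures moved with the clodronate comparison, where 57.4% of all genes were lower averaged over activity (8.3% at an unadjusted p under 0.05). Adipocyte genes were lower in mean with clodronate (9 of 10 averaged over activity, median -0.41, 5 at an unadjusted p under 0.05, 0 past an adjusted p of 0.05 in limma), with summed levels of 12330 to 24519 CPM and 13146 to 25161 CPM in control and wheel mice given PBS and 8722 to 19673 CPM and 9562 to 15651 CPM in those with clodronate liposomes. No adipocyte marker was at the floor in any mouse. Macrophage genes were lower in mean for 10 of 10 (median -0.25, 2 at an unadjusted p under 0.05), and skeletal muscle genes were higher for 12 of 12 (median 1.46, 0 at that level). Lymph node genes were higher with clodronate in wheel mice (12 of 12 in mean, median 2.16, 11 at an unadjusted p under 0.05) and lower in mean for 11 of 12 in control mice. The part of these cell types in the result was not tested. Without the 5 mice high in lymph node genes, 64 of 79 members were lower with clodronate (63.4% of all genes), 14 of them at an unadjusted p under 0.05 (9.67% of all genes), with a median of -0.18 (-0.09 for all genes). Without the 2 mice highest in muscle genes, 74 were lower (56.3% of all genes) with a median of -0.30, and 54 were so at an unadjusted p under 0.05 (6.96% of all genes).

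The call of single members rested on single mice. Without control mouse 4 with PBS liposomes 5 members passed an adjusted p of 0.05 in limma, all lower with clodronate (Atp5b, Cox8a, Ndufa8, Uqcrc2 and Uqcrfs1), when 70 of all genes did (0.462%). Without control mouse 1 with clodronate liposomes 9 passed, all lower (Atp5g3, Cox5b, Cox6a1, Cox6b1, Cox7a2, Cox8a, Ndufa11, Ndufb8 and Uqcrq), when 146 of all genes did (0.964%). Without control mouse 5 with clodronate liposomes 1 passed, Ndufb3, when 34 of all genes did (0.225%). Leaving out each of the other 19 mice gave 0. For Cox8a, Cox6a1, Cox6b1, Uqcrc2, Atp5g3, Atp5b and Ndufa8 the averaged difference ran from -0.44 (Ndufa8) to -0.34 (Atp5g3) without the 2 mice highest in muscle genes, and from -0.42 (Cox8a) to -0.24 (Atp5b) without the 5 high in lymph node genes.

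Cox6a2 and Ndufa4l2 were higher in mean with clodronate. Cox6a2, the form of subunit 6A in heart and skeletal muscle (chromosome 7, 128205435 to 128206387), had 1 to 52.5 CPM (median 9.68) in control and 1 to 4.52 CPM (median 1.93) in wheel mice with PBS liposomes. With clodronate liposomes it had 1, 408, 55.0, 1.42 and 29.2 CPM in control mice and 10.7, 200.5, 17.4, 5.16 and 2.40 CPM in wheel mice. The groups overlapped, and the highest values were those of the mice highest in muscle genes. Over the 11 mice with the lower muscle scores it ranged from 1 to 6.46 CPM, and over the 11 with the higher scores from 3.74 to 408 CPM. In control mouse 2 with clodronate liposomes Cox6a2 made up 63.3% of the summed Cox6a1 and Cox6a2, and Cox6a1 had its lowest value of the 22 mice there, 237 CPM. In the other mice Cox6a2 made up 0.188% to 36.6%. Its averaged difference with clodronate was 1.71 (standard error 0.82, limma adjusted p = 0.472), 0.71 without the 2 mice highest in muscle genes and 2.53 without the 5 high in lymph node genes.

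**Figure D5:**
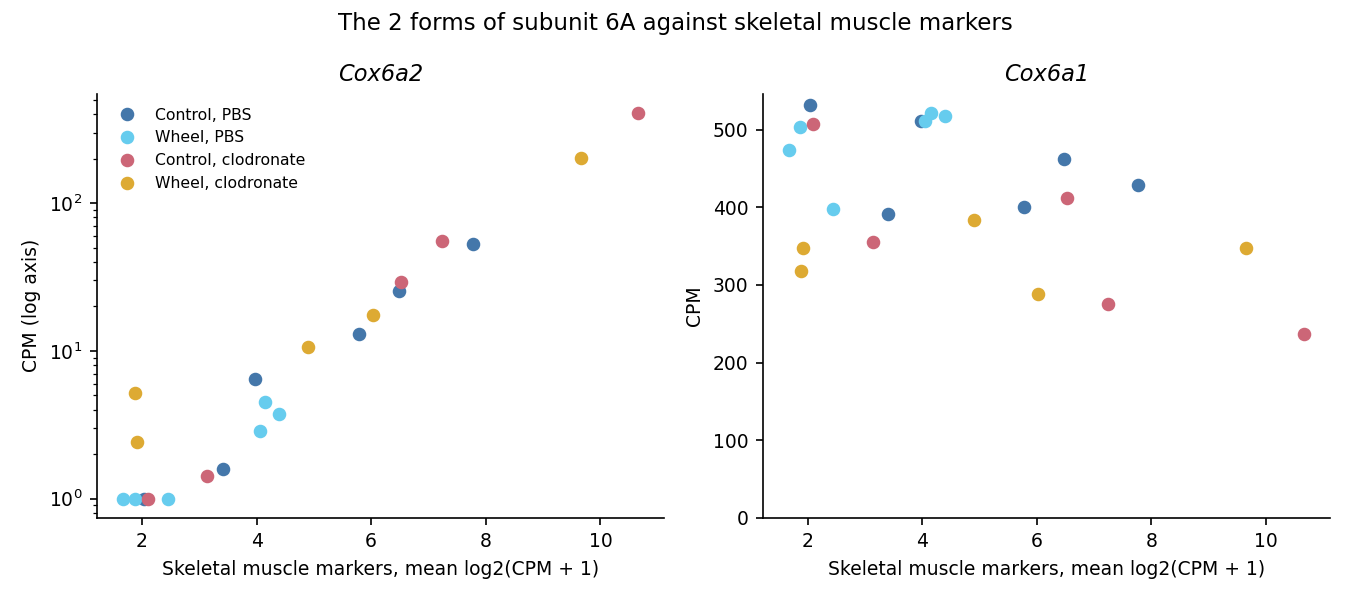
Each point is a mouse, with the mean log2(CPM + 1) of 12 skeletal muscle genes on the horizontal axis and the CPM of Cox6a2 (left, log axis) or Cox6a1 (right) on the vertical axis, coloured by group. Cox6a2 spans 1 to 408 CPM and is highest in the 2 mice with the most muscle genes, and Cox6a1 spans 237 to 532 CPM.

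Ndufa4l2, a relative of Ndufa4 known as a target of HIF-1 in low oxygen (chromosome 10, 127514967 to 127517154), was low throughout. It had 1.17 to 5.91 CPM (median 3.33) in control and 1.32 to 8.08 CPM (median 2.87) in wheel mice with PBS liposomes, and 2.00, 16.3, 22.0, 2.90 and 10.7 CPM in control mice and 7.65, 12.9, 7.72, 4.86 and 1.07 CPM in wheel mice with clodronate liposomes. Of the 10 mice with clodronate 4 lay above every mouse with PBS liposomes, and the rest overlapped. The averaged difference was 0.95 (standard error 0.38, limma adjusted p = 0.353), 0.70 without the 2 mice highest in muscle genes and 1.33 without the 5 high in lymph node genes. Ndufa4 itself differed by -0.24 (standard error 0.20), with a mean of 97.6 CPM. Cox7a2l differed by 0.30 (standard error 0.15, limma adjusted p = 0.496) and by 0.06 without the 5 mice high in lymph node genes. It had 22.2 to 52.4 CPM in wheel mice with clodronate liposomes.

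Other genes of the pathway, from fixed lists, were set beside the members for the averaged clodronate comparison. In that comparison 57.4% of all genes were lower, and 8.3% were lower at an unadjusted p under 0.05 in limma. Of 13 protein genes of mitochondrial DNA 8 could be tested, since mt-Nd4l, mt-Co2, mt-Co3, mt-Atp6 and mt-Atp8 were listed at the floor in every mouse. All 8 were lower in mean (median -0.26, 1 at an unadjusted p under 0.05, mt-Nd5 at -0.27, standard error 0.13). Of 8 other nuclear genes of the pathway, which include cytochrome c and the Cox7a1 and Cox8b left out by name, 7 were lower (median -0.32, 4 at an unadjusted p under 0.05). Among them Ndufab1, the acyl carrier protein in complex I, differed by -0.36 (standard error 0.10, limma adjusted p = 0.118), Cyc1, cytochrome c1 of complex III, by -0.35 (standard error 0.14) and Cycs, cytochrome c, by -0.35 (standard error 0.19). Of 45 assembly factors tested 41 were lower (median -0.17, 9 at an unadjusted p under 0.05), with Cox17, a copper chaperone of complex IV, at -0.52 (standard error 0.16, limma adjusted p = 0.194). Of 6 genes of ATP, phosphate and channel transport 5 were lower (median -0.13, 1 at that level).

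The regulators were split in direction. Of 12 transcription factors and coactivators of respiratory genes 4 were lower with clodronate and 8 higher (median 0.09, 0 at an unadjusted p under 0.05). Ppargc1a, the coactivator PGC-1α, differed by -0.37 (standard error 0.32), Nrf1 by 0.24 (standard error 0.20) and Gabpb1, a subunit of GABP, by 0.35 (standard error 0.22). In all of these lists 0 genes passed an adjusted p of 0.05 in limma.

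Members varied together between mice of the same group. With each group's mean subtracted, the median correlation over the 3081 pairs of members was 0.34 across 22 mice, against 0.009 for pairs of all genes tested, and 82.8% of the pairs were above 0. A single component carried 37.9% of the scaled variance of the members. These values describe libraries that share depth and cell makeup, which differ from mouse to mouse. Members were also more abundant than most genes tested (median 103 against 10.2 CPM), and the pairs of all genes were not matched to them by level. The correlation with the mean of the other members was above 0.5 for 50 members and below 0 for 3, namely Cox6b2 (-0.55), Atp5g2 (-0.18) and Cox7a2l (-0.13). Cox8a (0.17), Cox6a2 (0.14) and Ndufa4l2 (0.05) were also among the 8 members with the lowest values.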

How the data were processed

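RNA of the left 4th mammary tissue of 22 mice was sequenced from the 3′ end (QuantSeq 3′ FWD). The submitters' processing notes name STAR 2.5.3a and GRCm38. The counting program was not given in the sources used here. The authors deposited CPM values as the signal of each gene and raised those below 1 to 1. Their total counts unmapped and multimapping reads too. Steps between neighbouring values gave the depth, as values above the floor were whole multiples (within 0.05 of a read, checked up to 200 CPM) of the value of a single read. A floor value can hide as many as 13 to 20 reads, so no count test was used. Precision near the floor is limited by it.

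Of 52526 symbols, those listed more than once (106) kept the row with the highest mean. limma 3.58.1 (R 4.3.3) was run on the 15138 genes above 1 CPM in at least 5 of 22 mice, on log2(CPM + 1), a scale that understates differences of low genes, with 4 group means, a variance trend and Benjamini-Hochberg adjustment over all genes. The design had named the values CPM, and they are treated as a signal since the floor makes the columns sum to more than CPM can. Other steps used Python 3.11.15 (numpy 2.4.6, pandas 2.3.3), and plots matplotlib 3.10.9. The limma step was tested on simulated data with no change or with changes far larger than the typical difference of the members. The simulation therefore does not show how well differences of the members' size would be found. Groups and replicate numbers came from the labels, and the numbers belong to different mice. Named genes were fixed subunits, the 3 largest differences each way in each comparison, and the highest and lowest member of each complex. Coordinates of genes are those of GENCODE M21, and promoters those of RefSeq (GRCm38.p6), with 2 members matched under newer symbols. The members, lists and tests were chosen with earlier results of these data known. Alternatives were other pseudocounts, filters and scalings, no variance trend, only the groups compared, the replicate block, and leaving out mice, and the muscle-high mice were left out after seeing the data. Values of 1 member are not reported here.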

Additional observations from a re-analysis of the deposited data

Results flagged for a closer look

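In 22 measures (the members described by mouse and the mean levels), each group of 5 or 6 mice was searched for a mouse far from the rest, 88 groups in all, and 3 were found, where chance gives about 4.4 at 1 in 20. Cox8a in wheel mice with clodronate liposomes was highest in mouse 1, at 8.32 on the log2(CPM + 1) scale (319 CPM), against 7.92 (242 CPM) in the next mouse. Cox6a1 in wheel mice with PBS liposomes was lowest in mouse 1, at 8.64 (398 CPM), against 8.89 (474 CPM) in the next. Cox7a2l in control mice with clodronate liposomes was lowest in mouse 5, at 4.41 (20.2 CPM), against 4.95 (29.9 CPM) in the next.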

How the results depend on the processing

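The mean log2 difference over the 79 members was recomputed under other scalings, filters and sets of mice. It ranged, leaving out each mouse in turn, from -0.15 to -0.08 for the wheel with PBS liposomes, from -0.14 to -0.02 for the wheel with clodronate liposomes, from -0.28 to -0.16 for clodronate in control mice, from -0.24 to -0.15 for clodronate in wheel mice and from -0.23 to -0.17 for clodronate averaged over activity. The interaction ranged from -0.028 to 0.093, with the sign turned without control mouse 3 with clodronate liposomes (-0.028) and without wheel mouse 2 with clodronate liposomes (-0.020), and it was also turned under upper-quartile scaling (-0.078). Without the 5 mice high in lymph node genes the wheel difference with clodronate liposomes turned to 0.060, and the clodronate difference in wheel mice moved to -0.037. The cause was not tested. Members past an adjusted p of 0.05 for clodronate averaged over activity numbered 0 to 9 when a mouse was left out, with 5 without control mouse 4 with PBS liposomes, 9 without control mouse 1 and 1 without control mouse 5 with clodronate liposomes, and 0 under every alternative of another kind that was run. The other comparisons had 0 throughout.

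With the replicate number as a block 0 members passed in any comparison, while genes past an adjusted p of 0.05 for clodronate averaged over activity went from 31 to 11, and it changed no other call of a member. The correlation of same-numbered mice, as deviations from their group means, ran from -0.39 to 0.52. Mice of different numbers were not compared, so this range cannot decide whether the numbers link mice across groups. An edgeR test on recovered reads was planned and not run, because reads below the floor are lost. For the setting without a filter, genes at the floor in every mouse were left out. A gene at the floor can have up to 20 reads, which limits Cox4i2, Atp5g2 and Cox6a2 in the mice where they are at 1 CPM.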
